A study of Oryza sativa with 2 samples.

Results

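The WRKY transcription factor genes of rice were examined for peaks of OsbHLH002, a basic helix-loop-helix factor. They were chosen by their description in the annotation, taking every gene in the deposited list whose description contained WRKY in upper case. This gave 54 genes of 14709 in the list, and each of the 54 carried a WRKY number of its own in its description. Since the description chose the genes, it is no outside check of the label. Of 7 names also found in a RefSeq gene table, 5 were on the same chromosome and 2, WRKY8 and WRKY9, on another. The study was a chromatin immunoprecipitation in transgenic rice plants, in which the mutant Osbhlh002-1 carried the genomic construct gOsbHLH002-3FLAG. There was 1 library made with an antibody against FLAG (the IP) and 1 input library of sheared chromatin, both from plants of this genotype. The construct is a genomic one, no wild-type or untagged group was analysed here, and the sources used here give neither tissue nor number of plants. The values therefore describe 1 IP over 1 input, with no replicate and no comparison between conditions.

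WRKY proteins are plant transcription factors named after a conserved stretch of their DNA-binding domain, which also holds a zinc finger and binds a promoter element known as the W-box. Many are switched on by pathogen signals through mitogen-activated protein kinase cascades. They act as activators or repressors of defence, and others act in hormone, nutrient and senescence responses. Since WRKY factors often control each other, the genes that encode them are commonly studied as targets of other regulators. In secondary walls, the subject of the study's title, WRKY factors of rice and Arabidopsis are known as repressors. The roles given below are those known for the rice gene of that number.

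The peaks at WRKY genes were of moderate strength and spread over a wide range. Fold enrichment, the authors' value for how far IP exceeds local background at the summit (a linear ratio), ran from 1.96 at WRKY19 to 7.69 at WRKY111. The median was 3.47 (quartiles 2.94 and 4.94), beside 3.13 for all genes in the list (quartiles 2.57 and 4.11). A fold of 4 or more was reached by 21 of the 54 genes (38.9%, 95% exact binomial interval 25.9 to 53.1%). Over all genes in the list the same threshold was reached by 27.6%, which lies inside that interval. The strongest peaks in the list reached a fold of 141, and no WRKY gene came near them, with WRKY111 at rank 464 of 14709 genes.

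The peak caller's q, which covers counting error only, was 0.05 or less at 48 of the 54 genes, a share of 88.9% beside a background of 90.1% over the list. That share is close to the background and is no result about WRKY genes. At a q of 0.001 or less there were 43 WRKY genes (79.6%, interval 66.5 to 89.4%) beside 61.9% of the list. Shares above 61.9% were also found in the partner gene groups described below. These shares were compared by their intervals only, which treat genes as separate units, and with 1 IP no test between samples could be made.

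**Figure D1:**
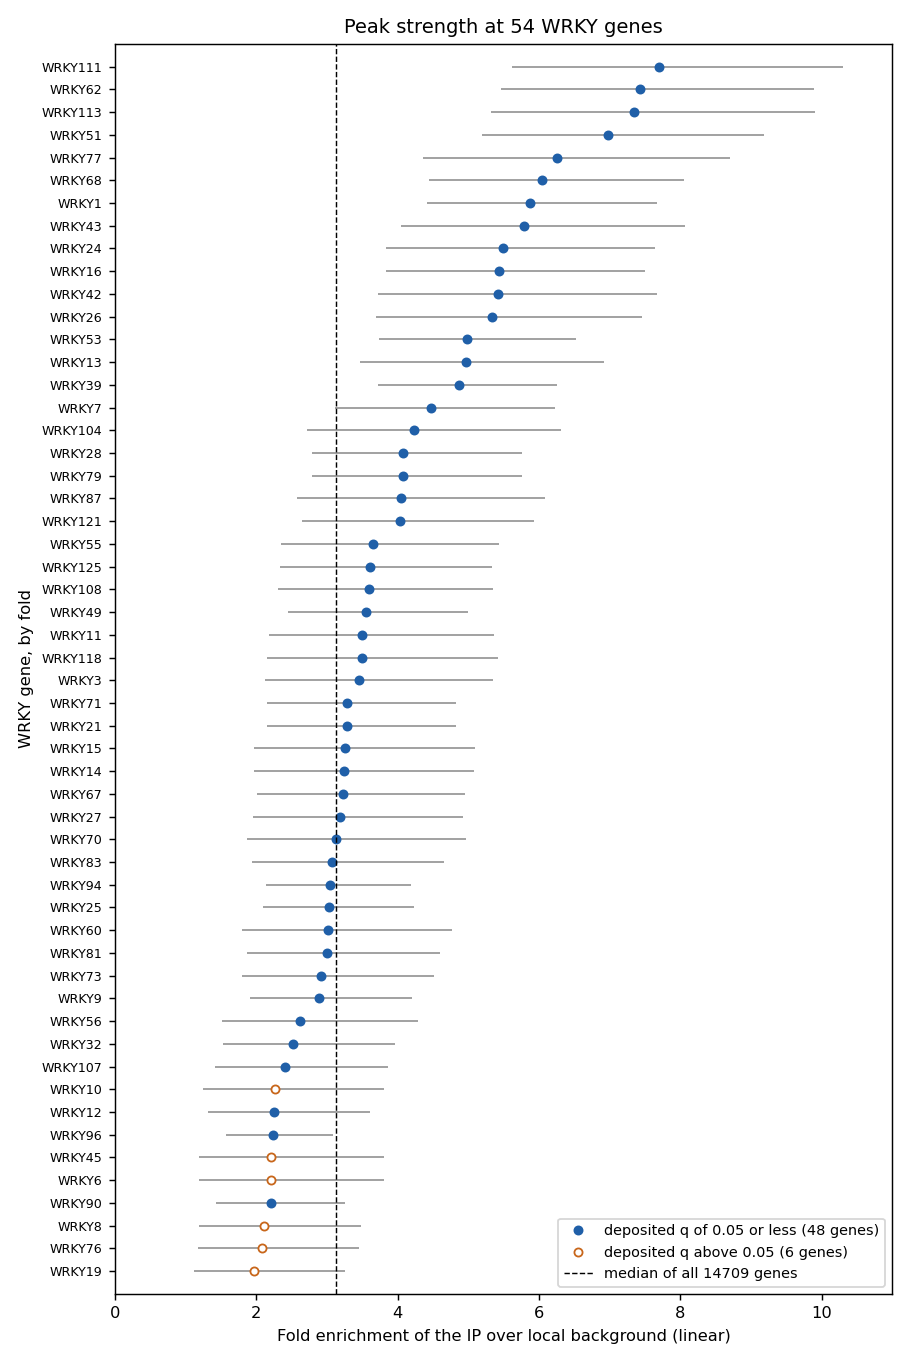
Fold enrichment of the IP over local background at each of the 54 WRKY genes, ordered by fold, with the counting interval of the IP fragments (95% exact Poisson) as a grey line. Filled points have a deposited q of 0.05 or less, open points a higher q, and the dashed line is the median of all 14709 genes, 3.13. The genes form a gradual slope from 7.69 to 1.96, with 6 open points at the weak end.

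The plot of fold by gene shows a continuous order with no step in it. The number of IP fragments at each summit was recovered from the deposited fold and p, and an exact Poisson interval of that count was carried to the fold. The background was held fixed, so counting error of the input is left out and the fold intervals are too narrow. For all 53 pairs of neighbours in the order, the intervals overlapped, so no gene could be ranked against the next. Against the gene at the top, WRKY111, the intervals of 20 genes overlapped and those of 33 lay below. The interval lay wholly above the list median at 15 WRKY genes and wholly below it at 1, WRKY96. The share above was 27.8% (exact binomial interval 16.5 to 41.6%), and the 17.9% of all genes lies inside that binomial interval.

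WRKY111 had the highest fold. The gene (LOC_Os05g50700) occupies 29064582 to 29065815 of chromosome 5 (plus strand), and its peak ran from 29063267 to 29064902 across the gene start. The summit, 68 bp upstream of the start, held 43 IP fragments (interval 31.1 to 57.9) over a background of 4.72, with a −log10 q of 23.6. It is a promoter peak in the narrow sense, with the summit almost at the start.

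WRKY62, which represses defence against bacterial blight, came next at 7.43-fold, and its −log10 q was 23.8. The gene (LOC_Os09g25070) occupies 14992803 to 14994888 of chromosome 9 (minus strand). Its summit held 45 IP fragments (32.8 to 60.2) over a background of 5.19 and lay 2536 bp upstream of the start, the largest distance among the 54 genes. Only the near part of this peak, from 14996447 to 14997616, reached into the 2 kb around the start by which peaks were assigned to genes.

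WRKY113 (LOC_Os06g06360, chromosome 6, 2958991 to 2963006, plus strand) had a fold of 7.34, from 41 IP fragments over 4.72, with its summit 847 bp upstream. WRKY51, a repressor of gibberellin-induced genes in the aleurone of the grain, had a fold of 6.98 from 49 IP fragments over 6.17. WRKY77, known to activate an abscisic acid responsive promoter, had a fold of 6.25 from 33 fragments over the genome-wide background of 4.44, with its summit 1873 bp upstream. The summits of these 5 genes lay at very different distances from the start, from 68 to 2536 bp.

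The remaining genes among the 12 strongest had folds between 5.33 and 6.05. WRKY68 reached 6.05 at a summit 1693 bp upstream, and WRKY1 5.87, 1358 bp upstream. WRKY43 reached 5.79, 750 bp upstream. WRKY24, which represses gibberellin and abscisic acid responses in the aleurone, had 5.49 with a summit inside the gene, 371 bp downstream of the start. WRKY16 (5.43), WRKY42 (5.42) and WRKY26 (5.33) completed this set, and the summit of WRKY26 lay 61 bp upstream of its start. Of these 12 genes, 9 had the summit upstream and 3, WRKY51, WRKY24 and WRKY16, inside the gene.

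At the weak end, 6 genes had a q above 0.05. WRKY19 had the lowest fold, 1.96, from 13 IP fragments over 6.14, with a q of 0.166. WRKY76, which represses blast resistance, had a fold of 2.08 and a q of 0.101. WRKY8 had a fold of 2.10, WRKY6, an activator of the defence gene PR10a, and WRKY45 each had 2.21, and the q of all 3 was 0.0981. WRKY10 was nearest to the threshold, with a fold of 2.26 and a q of 0.0633. These peaks cannot be told from background at this threshold, and WRKY76 and WRKY45 belong to the best-studied defence genes of the family. WRKY90 had a similarly low fold of 2.20 but a q of 0.00768, since its 23 IP fragments over 9.91 carried more counts.

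**Figure D2:**
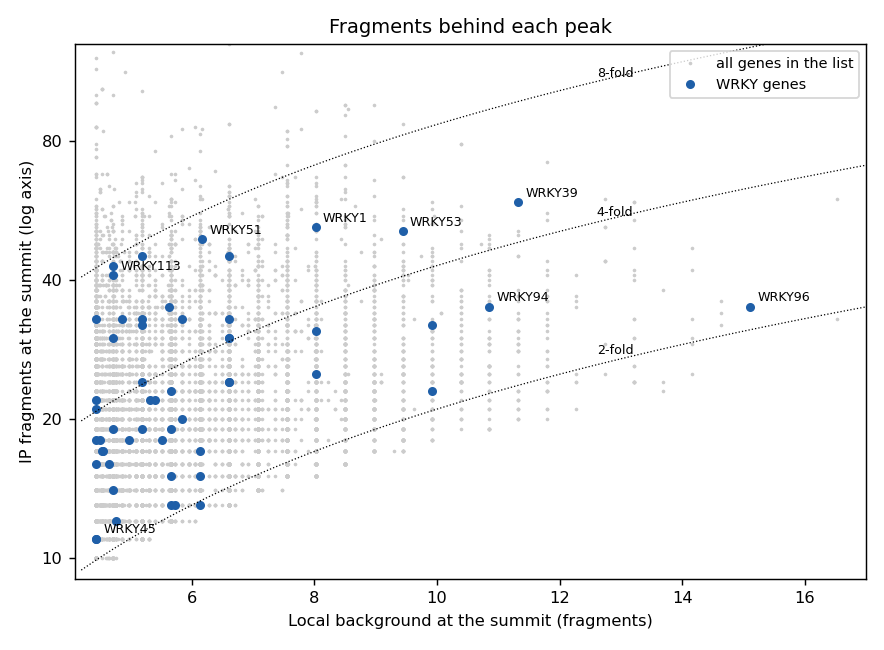
IP fragments at the summit (log axis) against the local background in fragments, for WRKY genes in blue and all genes in the list in grey, where 1 point is 1 gene and dotted lines mark equal fold. Genes with very many fragments lie above the range drawn. WRKY39, with 59 fragments, lies between 4-fold and 8-fold, and WRKY96, with the highest background of the family at 15.1, lies near 2-fold.

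Fragment counts show how much evidence lies behind each fold. The median WRKY summit held 23 IP fragments (quartiles 17.25 and 33, range 11 to 59) over a median background of 5.57, beside 20 fragments over 5.19 in the whole list. WRKY39 had the most fragments, 59, but over a background of 11.3, which left a fold of 4.87. WRKY53 (51 fragments over 9.44, fold 4.98) and WRKY1 (52 over 8.02) were of the same kind. At WRKY96 the 35 fragments stood over a background of 15.1, for a fold of 2.24, and WRKY94 had 35 over 10.9, for a fold of 3.04. A background at the genome-wide level of 4.44 was found at 7 WRKY genes (13.0%, interval 5.37 to 24.9%), beside 25.9% of all genes. A background above the genome-wide level was thus more frequent at WRKY genes than in the list, and the fold already divides by that background. In bulk plant material a weak peak in many cells and a strong peak in a few cannot be told apart.

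Summits lay upstream of the gene start at 38 of the 54 genes (70.4%, interval 56.4 to 82.0%), inside the gene at 13 (24.1%) and past its 3′ end at 3 (5.56%). Over all genes the shares were 63.2%, 27.1% and 9.77%, and each lies inside the interval of the WRKY share. The median fold was 3.52 for upstream summits and 3.24 for summits inside the gene, beside 3.31 and 2.76 for all genes. The 3 summits past the 3′ end belonged to WRKY13, WRKY60 and WRKY10.

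By distance, 18 summits (33.3%, interval 21.1 to 47.5%) lay within 250 bp of the start, 12 beyond that but within 1 kb, 19 between 1 and 2 kb and 5 farther. The share within 250 bp over the whole list was 35.8%. Of the 18 close summits, 13 were upstream, and their median fold was 3.29, beside 3.31 for all genes with a summit there. A fold of 4 or more was found at 4 of the 18 close summits, 7 of the 12 out to 1 kb, 7 of the 19 between 1 and 2 kb and 3 of the 5 beyond. Over all genes in the list it was found at 1247 of 5261, 1080 of 4055, 1249 of 4275 and 484 of 1118 in the same classes. Of the 21 WRKY genes with a fold of 4 or more, 17 (81.0%, interval 58.1 to 94.6%) had the summit more than 250 bp from the start. Among all genes with that fold the share was 69.3%, inside the interval. The 5 farthest were WRKY62, WRKY71 (2330 bp upstream), WRKY7 (2287 bp upstream), WRKY107 (2179 bp upstream) and WRKY13 (2271 bp downstream).

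**Figure D3:**
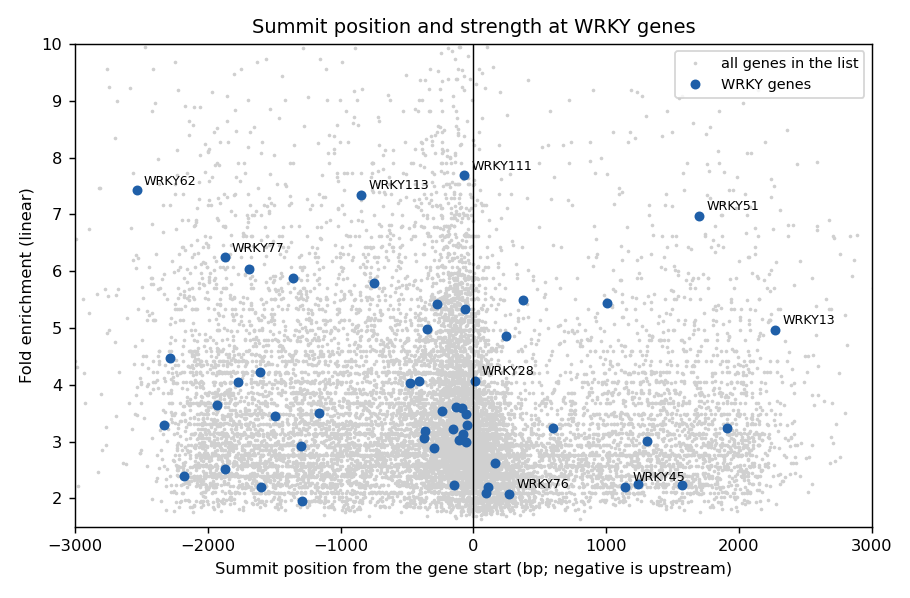
Fold enrichment against the position of the summit from the gene start in bp, negative values upstream, for WRKY genes in blue and all genes in the list in grey. Points outside the axes are not drawn. WRKY62, WRKY113 and WRKY77 are strong far from the start, WRKY111 is strong at the start, and WRKY51 is strong 1700 bp downstream.

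Among the genes of defence activators, 4 of the 7 on the role list had an entry. WRKY6, named above as an activator of PR10a, was not on that role list, and its q was 0.0981. The share of all rice genes with an entry is not known here. Counts of entries in this and the following role lists are therefore no result about the roles. WRKY53, a defence activator that also acts in brassinosteroid signalling and is phosphorylated by mitogen-activated protein kinases, was enriched 4.98-fold (−log10 q 18.2). Its summit lay 352 bp upstream of the start. WRKY13, an activator of resistance to blast and bacterial blight, had a fold of 4.97 from 33 fragments over 5.84, and its summit lay past the 3′ end of the gene. WRKY70, which favours defence over growth under insect attack, had a fold of 3.13, equal to the list median, with its summit 75 bp upstream. WRKY45, the central factor of salicylic acid induced resistance in rice, lies on chromosome 5 from 14991579 to 14993800. Its peak of 11 fragments over 4.44 lay inside the gene, 1144 bp from the start, and did not pass a q of 0.05. WRKY30, WRKY31 and WRKY89 had no entry.

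The genes of subgroup IIa, whose products are known as repressors of basal defence, all had an entry, 4 of 4. This count too has no share of all rice genes beside it. Their folds were far apart, with WRKY62 at 7.43, WRKY28 at 4.08, WRKY71 at 3.29 and WRKY76 at 2.08. WRKY28 had its summit 10 bp inside the gene, and WRKY71, which also represses gibberellin signalling in the aleurone, had it 2330 bp upstream. By counting intervals of fragments, WRKY62 (32.8 to 60.2) lay above WRKY76 (6.92 to 22.2) and overlapped WRKY28 (20.2 to 42.8) and WRKY71 (15.4 to 35.7). The backgrounds differed, and by fold the interval of WRKY62 (5.46 to 9.89) lay above those of WRKY71 (2.15 to 4.83) and WRKY76 (1.18 to 3.45). It overlapped that of WRKY28 (2.79 to 5.76). These fold intervals hold the background fixed and are too narrow.

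In the hormone and growth list, 3 of 5 genes had an entry. WRKY51 and WRKY24, introduced above, had folds of 6.98 and 5.49, and WRKY11, linked to heat and drought tolerance, had 3.50 with its summit 1163 bp upstream. WRKY72 and WRKY78 had no entry. Of the 5 genes listed under stress, phosphate and senescence, only WRKY42, which promotes leaf senescence, had one. Its fold was 5.42 from 30 fragments over 4.72, with the summit 277 bp upstream. That list is not complete, since WRKY108 (fold 3.59) and WRKY21 (3.29), both linked to phosphate uptake, had entries and were not on it. Neither of the 2 genes listed as secondary wall regulators, WRKY36 and WRKY102, had an entry. In all, 12 of the 23 genes of these role lists had an entry, again with no share of all rice genes to set beside it. A gene with no entry may still be bound, because 9584 of 22071 peak numbers are on no listed gene, and only 1 peak was given per gene. Some genes may also stand in the annotation under another name or number.

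Within 25 kb of each other lay 3 pairs of WRKY genes, and the members of 2 pairs differed by their counting intervals. WRKY76 and WRKY62, whose starts are 17175 bp apart on the same strand, had 13 and 45 IP fragments and folds of 2.08 and 7.43, a ratio of 3.57. The counting intervals of these fragments did not overlap. The 4 peak numbers between their peaks are on no listed gene, so any called peaks with those numbers lay between them and were not analysed here.

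WRKY83 and WRKY111, 13299 bp apart on the same strand, had 20 and 43 fragments and folds of 3.07 and 7.69. Their intervals (12.2 to 30.9 and 31.1 to 57.9) just failed to meet, and their peak numbers were consecutive, so no other peak was called between them. WRKY107 and WRKY10, which point toward each other with starts 7105 bp apart, had 15 and 12 fragments and folds of 2.40 and 2.26, with overlapping intervals. A stronger peak with a fold of 4.36, listed for another gene, lay between them. So 1 pair was weak at both genes, and the remaining 2 pairs each held a strong and a weaker member.

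**Figure D4:**
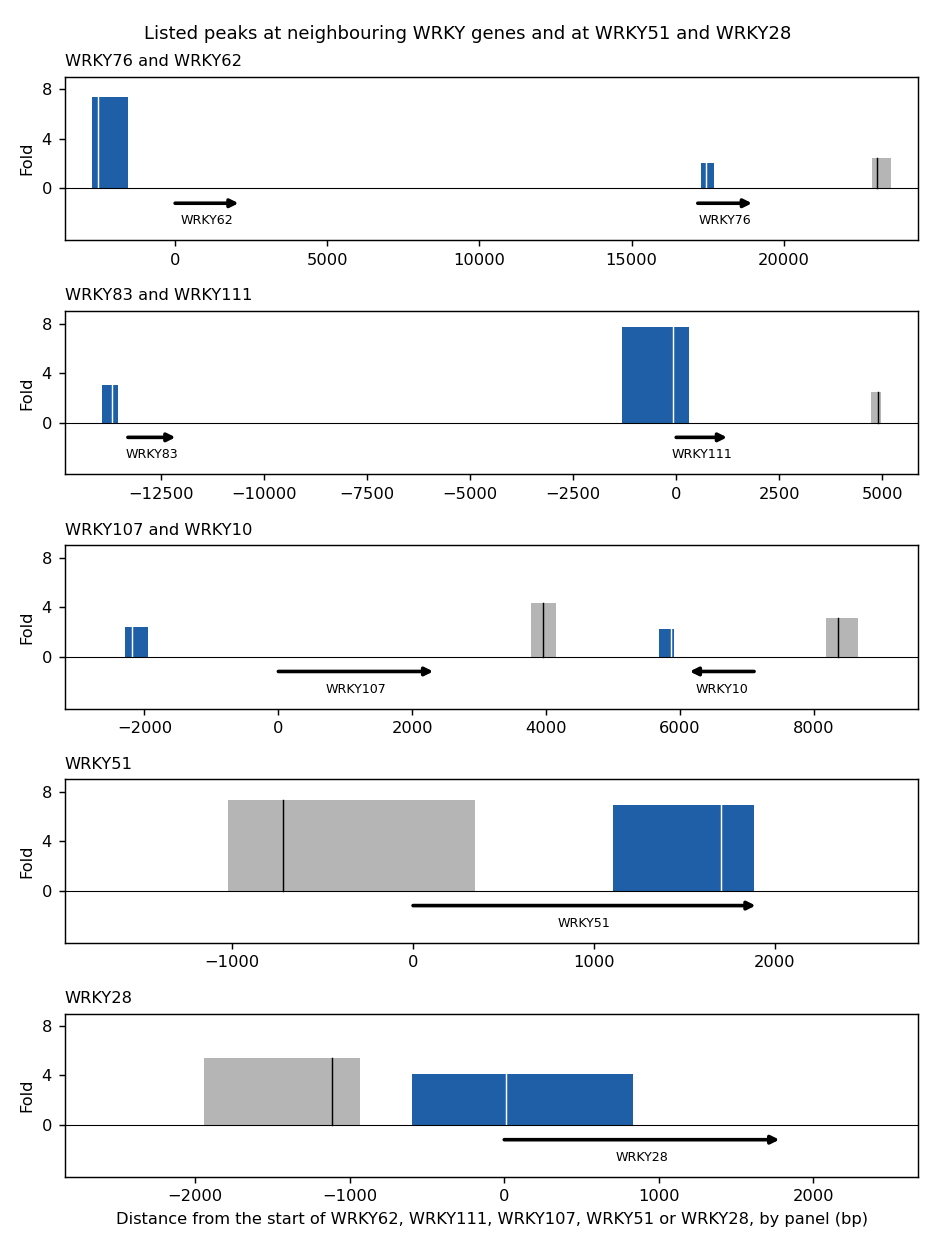
Listed peaks (bars, height is the fold on a linear axis, width is the peak in bp, inner line is the summit) and WRKY genes (arrows in the direction of transcription) at 3 neighbouring pairs and at WRKY51 and WRKY28. Distances are from the start of WRKY62, WRKY111, WRKY107, WRKY51 or WRKY28 in its direction of transcription; blue bars are the peak deposited for the WRKY gene, and grey bars are peaks listed for another gene. At WRKY51 and WRKY28 a grey peak upstream is higher than the blue one.

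At 3 WRKY genes another listed peak overlapped the 2 kb around the start and had a higher fold than the peak deposited for the gene. WRKY51 carried a peak inside the gene with its summit 1700 bp from the start of a gene of 1894 bp, close to its 3′ end. The other peak, with a fold of 7.35 from 39 fragments, had its summit 716 bp upstream of WRKY51 and was listed for LOC_Os04g21940, described only as an expressed protein. By fragments (39 against 49) and −log10 q (20.8 against 24.4) the deposited peak was the stronger of the pair. WRKY51 therefore had a strong peak across its start and another inside the gene near its 3′ end. At WRKY28 the other peak had a fold of 5.42 and lay 1113 bp upstream, also listed for an expressed protein gene. At WRKY10 it had a fold of 3.13, lay 1246 bp upstream and was listed for a retrotransposon gene.

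Most WRKY genes had a peak to themselves, as had most genes of the list. A peak was shared with another listed gene at 5 of the 54 (9.26%, interval 3.08 to 20.3%), beside 29.6% of all genes. A low share was not particular to WRKY genes among the groups described below. Sharing was found at 0 of 18 genes at the top of the kinase cascade, 1 of 11 mitogen-activated protein kinase genes and 5 of 26 VQ genes. It was found at 3 of 4 genes of the middle kinase tier and 8 of 26 bZIP genes. The 5 WRKY genes were WRKY111, WRKY42, WRKY125, WRKY118 and WRKY32. In 3 of these the summit was nearer to the WRKY start by a wide margin: at WRKY111 it lay 68 bp from the start against 2234 bp for a pentatricopeptide repeat gene. At WRKY42 it lay 277 bp away against 1933 bp for a retrotransposon gene, and at WRKY118 (fold 3.49) 53 bp against 1239 bp for the F-box gene OsFBX276. At WRKY125 (fold 3.60) the distances were 128 and 317 bp. At WRKY32 (fold 2.52) the summit lay 1871 bp from the WRKY start but 132 bp from that of a retrotransposon gene, so this peak was closer to its neighbour.

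Wide peaks were found at 4 WRKY genes (7.41%, interval 2.06 to 17.9%), beside 2.16% of all genes, counting peaks of 2000 bp or more. The peak of WRKY1 was 4163 bp wide, from 8082377 to 8086539 on chromosome 1, and covered most of the gene and of the 2 kb before it. WRKY49 had a peak of 3063 bp with a fold of only 3.55, WRKY68 one of 2426 bp and WRKY16 one of 2283 bp. All 4 covered the gene start. The median width was 506 bp, beside 450 bp in the list, and the peak covered the start at 23 genes (42.6%, beside 36.9%).

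**Figure D5:**
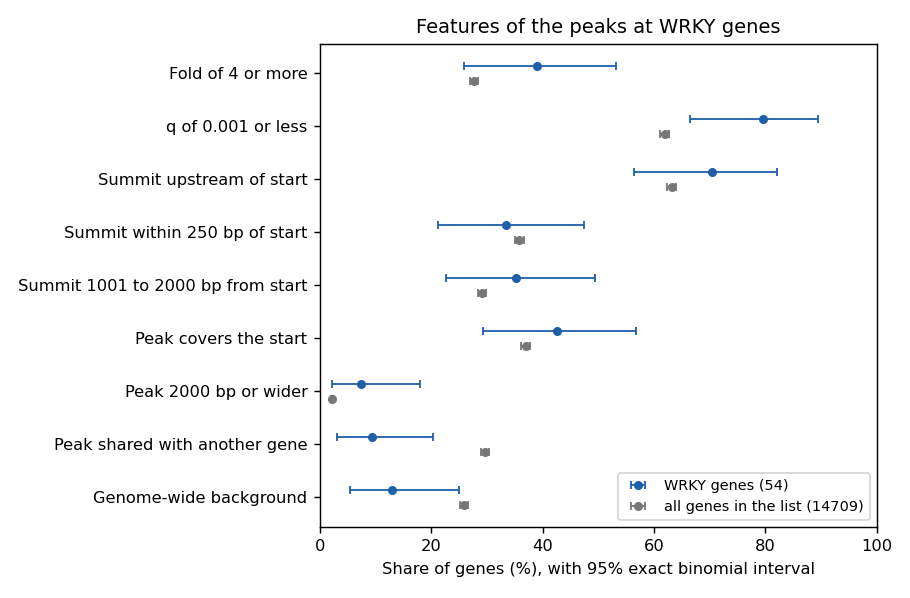
Share of genes with each feature of the peak, in percent with a 95% exact binomial interval, for the 54 WRKY genes in blue and all 14709 genes in grey. The intervals of the WRKY genes leave out the share of all genes for a q of 0.001 or less (79.6% against 61.9%), for peaks shared with another gene (9.26% against 29.6%) and for the genome-wide background (13.0% against 25.9%), and hold it for the position of the summit and for a fold of 4 or more.

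Genes for known partners of WRKY factors were also in the list, and they were taken by keywords in their descriptions. VQ domain proteins bind WRKY factors and change their activity. Of 26 such genes, 15 had a fold of 4 or more (57.7%, interval 36.9 to 76.6%), and this interval left out the background of 27.6%. A q of 0.05 or less was found at 25 (background 90.1%), and the median fold was 4.13. The strongest was LOC_Os01g46440, with a fold of 8.82 and its summit 531 bp upstream, followed by LOC_Os04g34050 (6.26) and LOC_Os03g20330 (6.07, 159 bp upstream). The exact interval of the VQ median, 3.36 to 4.67, lay above the list median of 3.13. It overlapped that of the WRKY median, 3.13 to 4.04.

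Mitogen-activated protein kinase cascades phosphorylate WRKY factors. Of 11 genes described as mitogen-activated protein kinases, 5 had a fold of 4 or more (45.5%, background 27.6%) and 10 a q of 0.05 or less (90.9%, background 90.1%), with LOC_Os03g17700 the strongest at 6.60 and its summit 220 bp upstream. LOC_Os05g49140 had 6.05 and LOC_Os06g49430 had 5.20. Of 4 genes for the kinases above them, 1 reached a fold of 4 (25%) and 3 a q of 0.05 or less (75%). It was LOC_Os01g32660 with 7.30 and its summit 7 bp upstream of the start, and LOC_Os03g50550 (3.15) and LOC_Os01g18150 (2.96) were next. Of 18 genes at the top of the cascade, 8 had a fold of 4 or more (44.4%) and all 18 a q of 0.05 or less, where the list has 90.1%. LOC_Os05g46760 (8.26), LOC_Os01g50420 (8.16) and LOC_Os03g55560 (7.70) led them, with summits 386, 237 and 49 bp upstream. For a fold of 4 or more, the exact intervals of the 3 tiers (16.7 to 76.6%, 0.631 to 80.6% and 21.5 to 69.2%) all hold the 27.6% of the list.

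Factors of the bZIP family include partners of the salicylic acid receptors of the NPR1 type, and WRKY45 too acts in resistance induced by salicylic acid. Of 26 bZIP genes, 9 had a fold of 4 or more (34.6%, interval 17.2 to 55.7%, background 27.6%) and 26 a q of 0.05 or less (background 90.1%). Their median fold was 3.46. LOC_Os06g45140 had the highest fold, 10.4, from 93 fragments over 8.02, followed by LOC_Os08g43600 (6.95) and LOC_Os08g43090 (6.62). No description in the list named an NPR1-type gene. The medians of the bZIP and WRKY genes, 3.46 and 3.47, were nearly the same. At a q of 0.001 or less the shares were 88.5% for VQ genes, 72.7%, 75% and 83.3% for the kinase tiers in the order above and 76.9% for bZIP genes. All were above the 61.9% of the list, so the 79.6% of WRKY genes was not particular to them. Among these partner groups only the VQ interval, 69.8 to 97.6%, left out 61.9%.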

How the data were processed

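Chromatin fixed with 1% formaldehyde for 15 min and sheared to 300 to 500 bp, per the labels' protocols, was sequenced as 1 IP and 1 input library. The submitters' processing notes name MACS2 2.2.7.1, Bowtie2 2.4.2, Picard and SAMtools. Build and calling threshold were not stated there or in the labels. The authors deposited 1 peak list of the IP joined to genes, with a fold enrichment (a linear ratio), a score, and p and q values as −log10. Coordinates are as deposited, counted from 1. Groups came from the sample titles.

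Fragments and background at each summit were solved from the deposited fold, (pileup + 1) / (background + 1), and the Poisson p, with a tolerance of 0.0001 times the −log10 p plus 0.0002. All 54 WRKY peaks had a single solution, as had 12485 of 12487 peaks, and the solver was tested on simulated data. The sources used here give no library totals. At a median of 20 IP fragments per listed summit, single peaks have wide counting intervals. Intervals are 95% exact Poisson for fragments and exact binomial for shares, and the interval of a median is from order statistics. All of them leave out any remaining PCR duplication and the spread between plants. The protocols describe no molecular identifiers, and how duplicates were treated was not checked here. The intervals of fragments and of fold hold counting error of the IP only, with the background held fixed.

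The members and lists were chosen with earlier results of these data known. Genes named with values were the 12 of highest and 5 of lowest fold, those with a wide or shared peak or a q above 0.05, pairs within 25 kb, and members of the role lists. Other named genes were picked after their values were seen. The alternatives were stricter q thresholds, summits within 1 kb, shared peaks left out, the strongest peak in the window, any case in the keyword, and other measures of strength. Of 39387 reference entries (RefSeq, GCF_034140825.1 ASM3414082v1), 0 held an identifier of the list. Names of 7 WRKY genes were found there, 5 on the same chromosome and 2 on another, so WRKY numbers differ between sources and the roles rest on the number in the list. No sequence of these genes was used here. Computations used Python 3.11.15, numpy 2.4.6, pandas 2.3.3, scipy 1.17.1 and matplotlib 3.10.9.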

Additional observations from a re-analysis of the deposited data

How the results depend on the processing

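The 54 WRKY genes were the same number with the keyword in any case. Limiting the list to summits within 1 kb of the start left 30 WRKY genes. Of these, 28 had a q of 0.05 or less, 11 had a fold of 4 or more and 60% had the summit within 250 bp of the start. Among all 9316 genes kept, 8316 had that q, 2327 had that fold and 56.5% had the summit within 250 bp. The loss follows from fewer genes kept. With other measures of strength, the WRKY median was 23 IP fragments (all genes 20) and a −log10 q of 5.35 (all genes 3.85). At a q of 0.001 or less the WRKY median fold of 3.64 lay below that of all genes kept, 3.82, so the order of these medians turned there. It was 3.57 against 3.30 at a q of 0.05 or less, and 3.29 against 3.13 without shared peaks. In all, 32 of 38 alternatives stayed within the interval of the value reported or within 1.5 times the count. This tally is no measure of robustness, since some alternatives could not differ. The keyword in any case kept the same 54 genes, and the count at a q of 0.05 or less could not change under that filter. The other measures of strength are in other units and were counted as moved. No paired analysis was possible because there was 1 IP and 1 input, and no library could be left out. The 6 peaks with a q above 0.05 rest on 11 to 13 IP fragments, and WRKY12, with a q of 0.0364, rests on 15. Such low counts limit the order of the weak genes.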

Other observations

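WRKY genes in the list lay on 11 of the 12 chromosomes. Chromosome 1 held 17 of them (31.5%, beside 15.8% of all genes in the list) and chromosome 5 held 11 (20.4%, beside 8.65%). How all WRKY genes of the genome are spread over chromosomes was not analysed here, so these shares are no measure of binding. Both WRKY genes on chromosome 4, WRKY51 and WRKY68, had folds above 6, while on chromosome 12 WRKY94 had 3.04 and WRKY96 had 2.24. These genes were picked out after their values were seen.

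WRKY108 and WRKY21, known in rice to act together in phosphate uptake, have starts 27413 bp apart on chromosome 1. Their folds were close, 3.59 from 22 IP fragments and 3.29 from 24, with summits 82 and 48 bp upstream of the starts. This pair was also picked out after its values were seen.

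The folds of this list move in steps because they rest on few fragments. WRKY28 and WRKY79 had the same values, 30 IP fragments and a fold of 4.08, as had WRKY71 and WRKY21 (24 fragments, 3.29) and WRKY45 and WRKY6 (11 fragments, 2.21).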
